A study of Homo sapiens with 6 samples.

Results

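The genes described here are 10 human genes of epithelial defence and the acute-phase response, *LCN2*, *SLPI*, *PI3*, *S100A7*, *S100A8*, *S100A9*, *SAA1*, *SAA2*, *C3* and *CFB*, chosen by name from the 40295 rows of a gene-level RNA-seq count table. The genes were chosen with earlier results of these data known. Each of the 10 was matched to 1 row by its Ensembl identifier. RNA was measured in HDQ-P1 cells, an established human breast carcinoma line of epithelial type, that were either left untreated (3 libraries) or exposed for 48 h to Y-320 at 1 µM (3 libraries). Y-320 is a small molecule previously described as immunomodulatory. Both groups were grown in the same medium with serum, no introduced gene or deletion is described for either, and no solvent control is mentioned. The comparison asks which of these transcripts differed in level after exposure to Y-320.

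Epithelial cells line surfaces that meet microbes, and they secrete proteins that starve, bind or kill bacteria or that restrain the proteases released by neutrophils. Many of the same genes also belong to the acute-phase response, the rise of certain secreted proteins during inflammation, which is best known in the liver but also occurs in epithelia. They are classical targets of cytokines such as IL-1, IL-6 and IL-17. Transcription factors of the NF-κB, C/EBP and STAT families are among those that carry such signals to the genes. Complement, of which *C3* and *CFB* are components, is a cascade of plasma proteins that coats and lyses microbes and is held in check by soluble and membrane-bound regulators.

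*SAA1* and *SAA2* encode serum amyloid A proteins and are so alike that reads cannot always be assigned to one of them, so part of their coding sequences is shown first. Both lie on chromosome 11, *SAA1* at chr11:18266260-18269977 on the plus strand and *SAA2* at chr11:18239223-18248668 on the minus strand (GENCODE 44 on hg38). Each coding sequence has 366 bases before the stop codon, and they differ at 11 positions (96.99% identity). The longest run without a difference has 186 bases. Bases 210 to 366 of each are printed because they hold 10 of the 11 differences, in capitals.

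SAA1: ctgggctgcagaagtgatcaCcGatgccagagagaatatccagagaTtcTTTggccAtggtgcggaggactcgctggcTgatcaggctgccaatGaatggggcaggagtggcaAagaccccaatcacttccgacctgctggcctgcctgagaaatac

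SAA2: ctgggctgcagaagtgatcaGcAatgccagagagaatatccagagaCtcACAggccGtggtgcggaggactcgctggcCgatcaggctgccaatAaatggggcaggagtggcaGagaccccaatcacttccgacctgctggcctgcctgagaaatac

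Promoters, defined as 250 bases before to 50 bases after a start site, were present in the RefSeq table for GRCh38.p14 for 5 of the 10 genes (*LCN2*, *CFB*, *S100A9*, *S100A8* and *S100A7*). Those of the 3 that passed the filter on low counts are printed, on the coding strand, because the 3 genes differ in which sequence patterns they hold. Capitals mark matches on either strand to a loose NF-κB pattern (GGG, any 5 bases, then CC) and to a C/EBP pattern, TTNNGNAA. The windows are chr9:128149203-128149502 for *LCN2*, chr6:31945845-31946144 for *CFB* and chr1:153357604-153357903 for *S100A9*, all on the plus strand.

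LCN2 promoter: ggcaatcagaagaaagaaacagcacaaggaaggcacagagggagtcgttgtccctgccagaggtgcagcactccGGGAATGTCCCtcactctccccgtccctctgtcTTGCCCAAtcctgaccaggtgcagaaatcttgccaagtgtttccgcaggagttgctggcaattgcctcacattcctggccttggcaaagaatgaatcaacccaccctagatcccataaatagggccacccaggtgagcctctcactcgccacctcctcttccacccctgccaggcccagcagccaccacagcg

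CFB promoter: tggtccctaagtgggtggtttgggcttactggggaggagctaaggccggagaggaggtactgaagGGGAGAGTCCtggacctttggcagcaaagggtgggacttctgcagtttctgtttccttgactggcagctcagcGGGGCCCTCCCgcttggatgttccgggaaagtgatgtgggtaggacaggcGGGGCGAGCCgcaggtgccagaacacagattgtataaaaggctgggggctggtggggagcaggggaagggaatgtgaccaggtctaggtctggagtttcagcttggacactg

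S100A9 promoter: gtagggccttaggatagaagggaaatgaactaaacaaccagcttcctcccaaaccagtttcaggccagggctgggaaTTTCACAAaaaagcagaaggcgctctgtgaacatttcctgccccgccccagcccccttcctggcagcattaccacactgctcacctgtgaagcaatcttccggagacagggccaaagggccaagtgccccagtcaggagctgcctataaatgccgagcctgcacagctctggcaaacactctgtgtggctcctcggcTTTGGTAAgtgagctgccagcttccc

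The stricter κB consensus, searched on both strands, occurred in the *LCN2* window from -175 to -166 and in the *CFB* window from -112 to -103, counted from the start site as 0, and was held by 11.26% of the 34796 promoters in the table. Each of these matches is, by definition, also a match to the loose pattern, which 58.63% of all promoters held. The *S100A9* window held neither κB pattern and had C/EBP matches at -173 to -166 and 24 to 31. *LCN2* also had a C/EBP match at -143 to -136, and 36.87% of all promoters held that pattern. The *CFB* window further held a match to the STAT pattern TTCNNNGAA at -92 to -84 (7.67% of all promoters) and one to the interferon response pattern (GAAA, any 2 bases, then GAAA) at -140 to -131 (3.572%). A match is a string of letters and was not tested for binding.

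The 6 libraries held 21045401 to 22740535 estimated counts, so that 1 count was worth 0.0438 to 0.0480 normalized CPM (counts scaled to library size), and 3 counts, the limit that a count of 0 allows, were worth 0.131 to 0.144 CPM. These limits cover counting error only. The first principal component of all tested rows held 58.4% of the variance and separated the groups. The labels do not say whether the libraries of a group came from separate cultures, so the p-values below measure the spread between these libraries, which may be technical. All 8 epithelial markers examined were detected, and their summed level was 11480 to 12007 CPM in untreated and 7110 to 7189 CPM in Y-320 libraries, with 6 markers lower and 2 higher. The fibroblast markers examined summed to 250 to 285 CPM in untreated and 127 to 147 CPM in Y-320 libraries, with 4 of 6 lower and none higher by edgeR (0 at an unadjusted p under 0.05, and 0 by limma-voom and DESeq2).

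Most of the 10 genes were higher in cells treated with Y-320. Of the 7 that passed the filter on low counts, 7 were higher and 0 were lower by edgeR's quasi-likelihood test (adjusted p under 0.05), when 26.2% of the 16580 rows tested were higher and 25.4% were lower. None of the 7 was lower at an unadjusted p under 0.05 either, and 0 were lower by limma-voom or DESeq2. The counts given below for the other lists are to be read against the same 26.2% higher and 25.4% lower. The 7 are not all of the list, and *SAA2* passed the filter only through its Y-320 libraries. As the genes were chosen with earlier results of these data known, these shares describe the list and do not test it. The median log2 fold change of the 7 was 0.50, against 0.00097 for all rows tested and 0.35 for the rows called higher. Every Y-320 library was above every untreated library for each of the 7, as it was for 29.8% of all rows tested. The same held for *SAA1*, which did not pass the filter. In a bulk sample, a change in the share of expressing cells and a change in RNA per cell cannot be told apart.

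**Figure D1:**
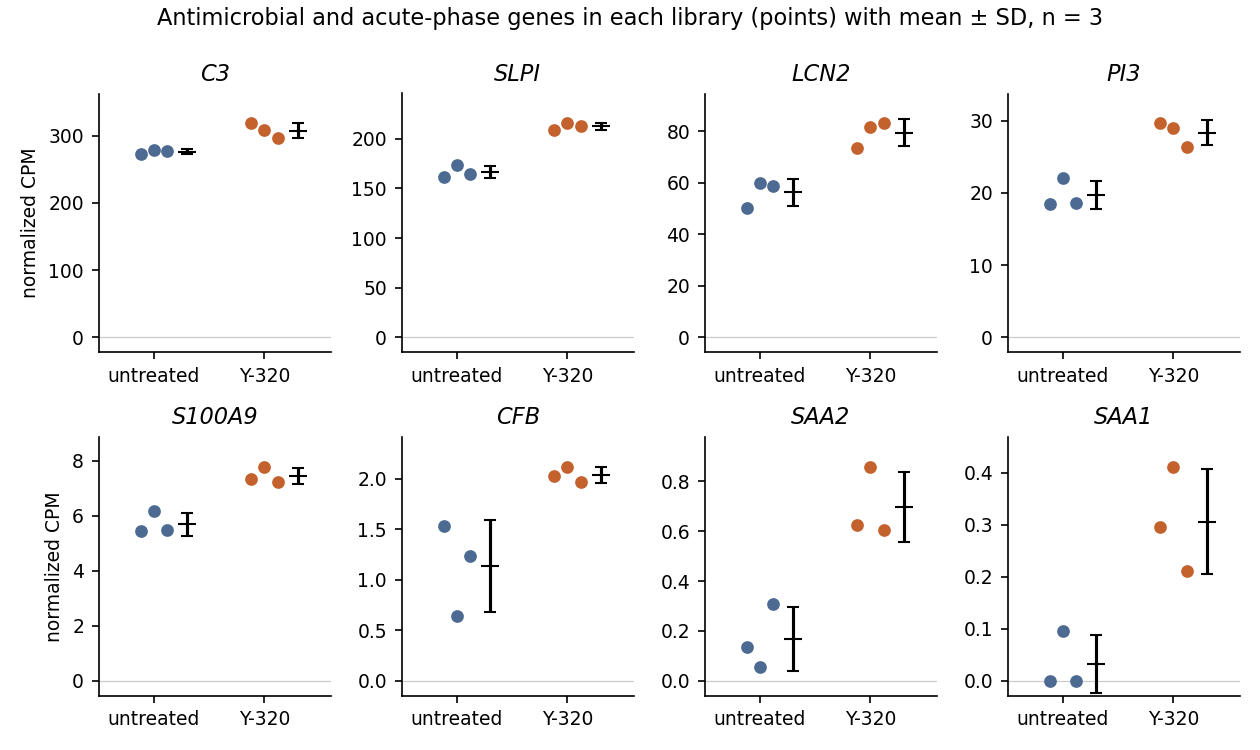
Normalized CPM (y axis, linear, a separate scale for each gene) of 8 genes in the 3 untreated (blue) and 3 Y-320 (orange) libraries, with the mean and SD of each group beside the points. In each panel the 3 Y-320 points sit above the 3 untreated points, and *CFB*, *SAA2* and *SAA1* show the widest spread relative to their level.

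The largest changes were in rows with the lowest levels. The 4 genes with the highest levels per kilobase of transcript, *SLPI*, *LCN2*, *C3* and *PI3*, had log2 fold changes between 0.16 and 0.52, whereas *CFB* and *SAA2*, which lay at percentiles 12.9 and 14.4 of all tested rows in level per kilobase, had 0.84 and 1.99. By the absolute size of the log2 fold change, *C3* stood at percentile 38.6 of all tested rows, *SLPI* at 69.2, *S100A9* at 72.7, *LCN2* at 80.9, *PI3* at 82.4, *CFB* at 92.4 and *SAA2* at 99.2. Low rows also had the largest errors, as the plot of fold changes shows.

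**Figure D2:**
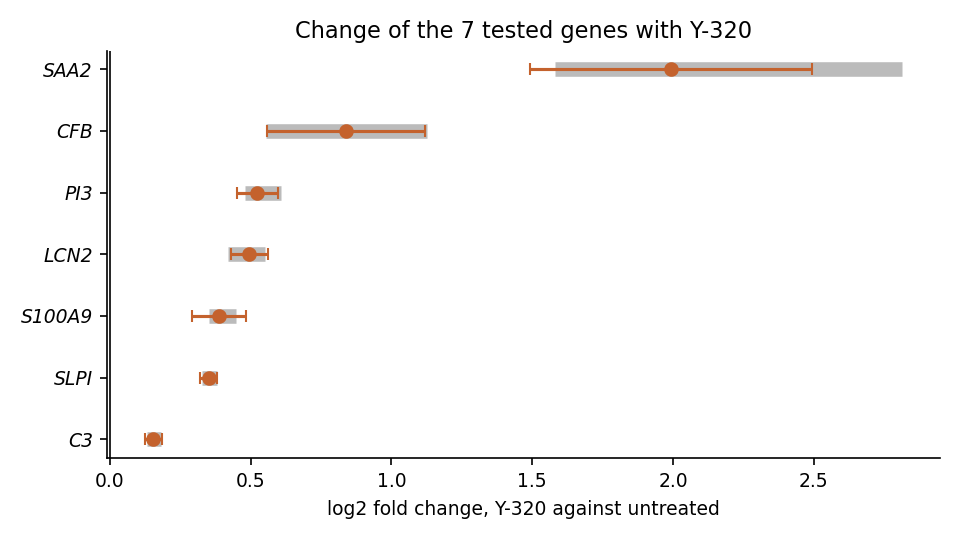
The log2 fold change of Y-320 against untreated (x axis) for the 7 genes tested, with points for the estimate, orange bars for its SE, and grey bands for the range when each library was left out in turn. All bands stay above 0, from 0.13 to 0.18 for *C3* up to 1.58 to 2.81 for *SAA2*.

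*LCN2* encodes lipocalin 2, a secreted protein that binds bacterial siderophores and thereby withholds iron. Its row (ENSG00000148346, chr9:128149071-128153453, plus strand) held 1110, 1249 and 1295 counts in untreated cells against 1676, 1785 and 1838 with Y-320. The lowest Y-320 library was well above the highest untreated library, also after scaling. The mean rose from 56.3 ± 5.23 to 79.3 ± 5.21 CPM (SD, n = 3), a log2 fold change of 0.50 (SE 0.066; adjusted p = 0.00012), and none of its 31-base words occurs in another gene. Of the receptors for lipocalin 2, *SLC22A17* was higher (log2 fold change 0.40) and *LRP2*, which encodes megalin, was lower (-1.80).

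*SLPI* and *PI3* encode secretory leukocyte protease inhibitor and elafin, small secreted inhibitors of neutrophil elastase that share the WFDC fold and lie in the same cluster on chromosome 20. *SLPI* (ENSG00000124107, chr20:45252239-45254564, minus strand) held 3576, 3628 and 3625 counts in untreated and 4774, 4711 and 4726 in Y-320 libraries. The groups were far apart relative to their spread. Its mean rose from 167 ± 6.37 to 213 ± 3.38 CPM, a log2 fold change of 0.35 (SE 0.031; adjusted p = 6.33e-06). *PI3* (ENSG00000124102, chr20:45174902-45176544, plus strand) held 409, 459 and 411 counts in untreated and 677, 633 and 584 in Y-320 libraries, with no overlap between groups. Its mean rose from 19.7 ± 1.98 to 28.3 ± 1.73 CPM, a log2 fold change of 0.52 (SE 0.073; adjusted p = 0.000163). *WFDC2*, another gene of this family, was likewise higher, at 60.1 ± 1.30 against 86.4 ± 2.67 CPM (log2 fold change 0.52, adjusted p = 6.5e-07). *WFDC12* had 1, 3 and 2 counts in untreated and 3, 5 and 2 in Y-320 libraries and was not tested. The elastase gene *ELANE* and *PRTN3* and *CTSG*, which encode other neutrophil proteases, did not pass the filter.

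*S100A7*, *S100A8* and *S100A9* encode calcium-binding proteins that chelate zinc and manganese, psoriasin for the first and the subunits of calprotectin for the other two. Of the 3, only *S100A9* was at a level that could be tested. Its row (ENSG00000163220, chr1:153357854-153361023, plus strand) held 120, 129 and 121 counts in untreated and 168, 170 and 160 in Y-320 libraries. The groups did not overlap, and the mean rose from 5.70 ± 0.420 to 7.45 ± 0.293 CPM (log2 fold change 0.39, SE 0.096, adjusted p = 0.00649). *S100A8*, the partner subunit (ENSG00000143546, chr1:153390032-153391073, minus strand), held 0 counts in all untreated libraries and 1, 1 and 0 in the Y-320 libraries. *S100A7* (ENSG00000143556, chr1:153457744-153460651, minus strand) held 1, 0 and 0 counts in untreated and 0 in all Y-320 libraries. For both, a difference was not detectable at this depth, and no fold is given. Other genes, above all *S100A7A*, share 27.6% of the 31-base words of *S100A7*, and *S100A7A* was at 0 in all libraries.

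The other S100 genes moved the opposite way where they moved. Of 18, 12 were tested, 6 were lower and 0 were higher by edgeR, with a median log2 fold change of -0.18. At an unadjusted p under 0.05, 1 was higher, *S100A14*, as it also was by limma-voom and DESeq2 unadjusted. *S100A14* was called higher when libraries were scaled by their totals alone, and it is named here after its values were seen. *S100A10*, the annexin A2 partner, fell by 0.57 on the log2 scale, from 434 ± 20.6 to 292 ± 2.57 CPM (adjusted p = 2.4e-07). *S100A4* fell by 0.34, *S100A2* by 0.33, *S100P* by 0.28, *S100A16* by 0.20 and *S100A11* by 0.11, the last of which lost its call without Y-320 replicate 3. Among 17 cornified envelope genes of the neighbouring epidermal cluster, 4 were tested. *IVL*, which encodes involucrin, fell by 1.51 and *FLG*, which encodes filaggrin, fell by 0.45 (a call lost in 4 of the 6 fits that left out 1 library, and kept without Y-320 replicate 2 and without untreated replicate 2), while *SPRR1A*, named after its values were seen, was called higher from 3, 2 and 0 counts in untreated to 21.7, 12.6 and 17.9 in Y-320 libraries, through which alone it passed the filter.

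*SAA1* and *SAA2* were close to the limit of detection in untreated cells and higher with Y-320. *SAA2* (ENSG00000134339) held 3.00, 1.15 and 6.82 estimated counts in untreated and 14.3, 18.7 and 13.4 in Y-320 libraries, with fractions, since reads that match more than 1 gene are divided when counts are estimated. Every Y-320 library was above every untreated library, at means of 0.696 ± 0.141 against 0.167 ± 0.130 CPM. The log2 fold change was 1.99 (SE 0.50; adjusted p = 0.00695). Leaving out 1 library in turn gave 1.58 (without untreated replicate 2) to 2.81 (without untreated replicate 3, the highest of its group), and 1.80 without Y-320 replicate 2.

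*SAA1* (ENSG00000173432) held 0, 2 and 0 counts in untreated and 6.73, 8.97 and 4.65 in Y-320 libraries and did not pass the filter. From the summed rounded counts, 21 against 2, its level was 10.2 times that of untreated cells, with an exact 95% counting interval from 2.50 to 89.8. Without the filter, edgeR gave an adjusted p of 0.0114 for *SAA1*, when 0.859% of the 10590 rows that the filter removes were called higher. Among 31-base words, 40.3% of those of *SAA1* occur in another gene, and 24.3% of those of *SAA2* do, so the division between the genes is uncertain. Summed before the fit, the pair held 3.00, 3.15 and 6.82 counts in untreated and 21, 27.7 and 18.1 in Y-320 libraries. The sum was higher by 2.30 on the log2 scale (SE 0.40; adjusted p = 0.000718), and *SAA1* made up 25.8 to 32.4% of it in the Y-320 libraries. *SAA4*, the constitutive liver gene of the family, held 1 count in Y-320 replicate 1 and 0 elsewhere.

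Of 22 other acute-phase genes, 7 were tested, of which 3 were higher and 1 was lower, with a median of 0.02. *PTX3*, a long pentraxin made by many tissues, rose from 1.53 ± 0.224 to 5.53 ± 0.932 CPM (log2 fold change 1.86, adjusted p = 1.15e-05). *SERPINA1*, which encodes α1-antitrypsin, was higher by 0.58 (adjusted p = 0.0491), a call lost in 5 of the 6 fits that left out 1 library, kept among these only without Y-320 replicate 3, and lost by DESeq2 (adjusted p = 0.098). *SERPINA3* (log2 fold change 1.45) and *ITIH4* (-1.11) were also called, both at means near or under 1 CPM, and are named after their values were seen. *SERPINA3* passed the filter only through its Y-320 libraries, and *ITIH4* needed its untreated libraries to pass. Of their 31-base words, 30.3% for *SERPINA3* and 65.1% for *ITIH4* occur in another gene. *SERPINA3* lost its call without untreated replicate 1, and *ITIH4* kept its call only without Y-320 replicate 1 and without untreated replicate 3. The classical liver acute-phase gene *CRP* was at 0 in all libraries. Of 6 hepatocyte markers, 0 passed the filter, 4 held at most 3 counts in every library and 1 of these 4, *FGB*, was at 0 throughout. The hepatocyte markers summed to 0.242 to 0.551 CPM in untreated and 0.231 to 0.329 CPM in Y-320 libraries.

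The complement components *C3* and *CFB* were both higher, from very different levels. *C3* encodes the central component whose cleavage marks targets, and *CFB* encodes factor B, the protease of the alternative pathway. *C3* (ENSG00000125730, chr19:6677704-6730562, minus strand) held 6021, 5825 and 6111 estimated counts in untreated and 7271, 6739 and 6567 in Y-320 libraries. After scaling the groups did not overlap, and the mean rose from 276 ± 3.31 to 308 ± 10.98 CPM. The log2 fold change, 0.16 (SE 0.029; adjusted p = 0.00122), was the smallest of the 7.

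*CFB* (ENSG00000243649, chr6:31945650-31952086, plus strand) held 33.8, 13.3 and 27.1 estimated counts in untreated and 46.3, 46.2 and 43.5 in Y-320 libraries. Untreated replicate 2 was the lowest, and all Y-320 libraries were above all untreated ones. The mean rose from 1.13 ± 0.455 to 2.03 ± 0.0768 CPM, a log2 fold change of 0.84 (SE 0.28; adjusted p = 0.0286). This call was the least secure of the 7. It was lost in 5 of the 6 fits that left out 1 library and was kept only without untreated replicate 1. Without untreated replicate 2 the log2 fold change was 0.56.

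The *CFB* row is the gene on the primary assembly, within the major histocompatibility complex, where alternative haplotypes carry further copies. Of the 40295 rows, 4905 had no match to a gene name and held 3.21 to 3.46% of the counts. Copies of *CFB* among them could not be named from the tables used here, so the row may hold only part of the reads of the gene. No unnamed row had the same values as *CFB* (0 within 0.01 counts in every library). Of the 31-base words of *CFB*, 38.8% also occur in another gene, above all in a readthrough gene that spans *C2* and *CFB*. *C2*, the neighbour of *CFB* and its counterpart in the classical pathway, held 9.79, 7.81 and 3.61 counts in untreated and 21.3, 16.6 and 39.4 in Y-320 libraries (log2 fold change 1.75, SE 0.43, adjusted p = 0.0062). Like *SAA2*, *C2* passed the filter only through its Y-320 libraries.

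The rest of the complement genes were divided. Of 21 other components, 9 were tested, 3 were higher and 1 was lower, with a median of 0.44. Of all rows tested, 26.2% were higher and 25.4% were lower. Besides *C2*, *C4B* was higher by 1.11, although it shares 94.6% of its 31-base words with other genes, above all *C4A*. *C1S*, a protease of the first component, was higher by 0.44, and its partner *C1R* fell by 0.85 on the log2 scale.

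The regulators and receptors had 3 higher and 6 lower genes among 13 tested of 17, with a median of -0.14. *CFI*, which encodes the protease that cleaves C3b, fell by 1.29, from 24.5 ± 1.36 to 10.0 ± 0.801 CPM (adjusted p = 1.88e-07). Another gene shares 35.2% of its 31-base words. *CLU* fell by 0.66, *SERPING1* by 0.43 and *CD46* by 0.25. *CD59* fell by 0.17 and *CD55* was higher by 0.18, both named after their values were seen. *ITGAX*, a subunit of complement receptor 4, was higher by 1.31. *ITGAM*, also named after its values were seen, was called higher from 4, 0 and 2 to 13, 17 and 16 counts, and passed the filter only through its Y-320 libraries. Per kilobase of transcript, the level of *C3* was 4.27 ± 0.226 times that of *CFI* in untreated and 11.7 ± 1.00 times in Y-320 libraries. The ratio of *C3* to *CD55* was 2.03 ± 0.0488 in untreated and 1.99 ± 0.00419 in Y-320 libraries.

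**Figure D3:**
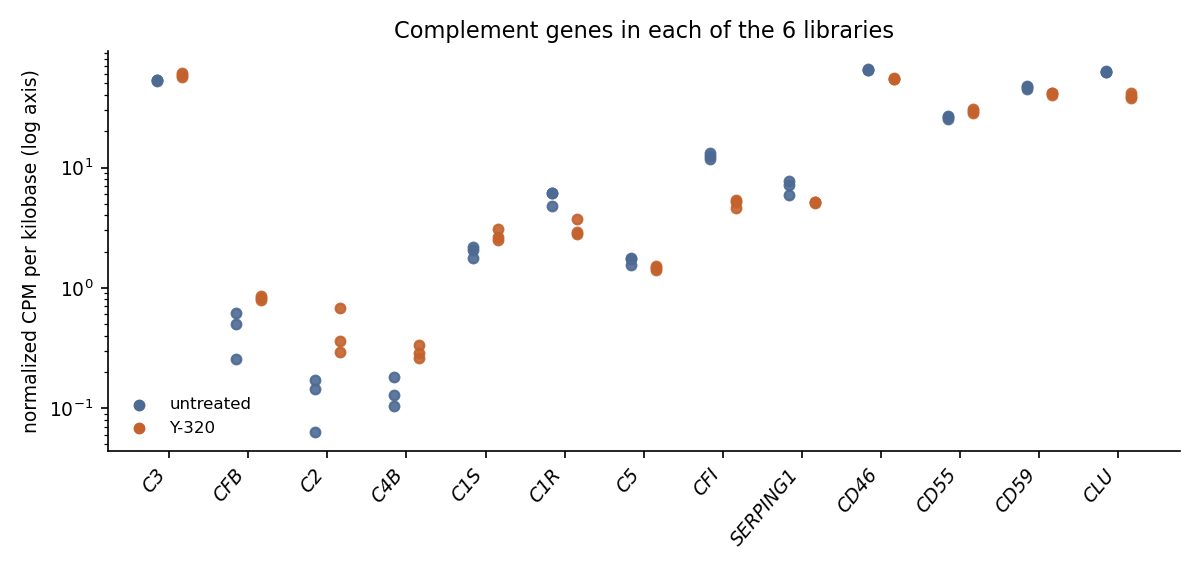
Normalized CPM per kilobase of transcript (y axis, log scale) of 13 complement genes in the 3 untreated (blue) and 3 Y-320 (orange) libraries. *C3*, *CFB* and *C2* sit higher in the Y-320 libraries, *CFI* and *CLU* sit lower, and *C3* lies far above *CFB* in both groups. *C5* was not past the threshold.

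Summed per kilobase of transcript, the 10 genes reached 448 ± 20.4 in untreated and 579 ± 9.90 normalized CPM per kilobase in Y-320 libraries. *SLPI* alone made up 62.5% of the summed level in untreated and 61.6% in Y-320 libraries. *LCN2* followed with 15.3% and 16.7%, *C3* with 11.8% and 10.2% and *PI3* with 7.99% and 8.87%. The order of levels per kilobase was the same in both groups for the 5 highest, at 280 and 357 for *SLPI*, 68.6 and 96.7 for *LCN2*, 52.8 and 58.8 for *C3* and 35.8 and 51.4 for *PI3* (untreated and Y-320), followed by *S100A9*. Below them, *CFB* was at 0.458 ± 0.184 and 0.822 ± 0.031 and *SAA2* at 0.289 ± 0.225 and 1.21 ± 0.244. In untreated cells these 2 genes did not differ beyond their spread, and *SAA2* was above *CFB* in untreated replicate 3.

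**Figure D4:**
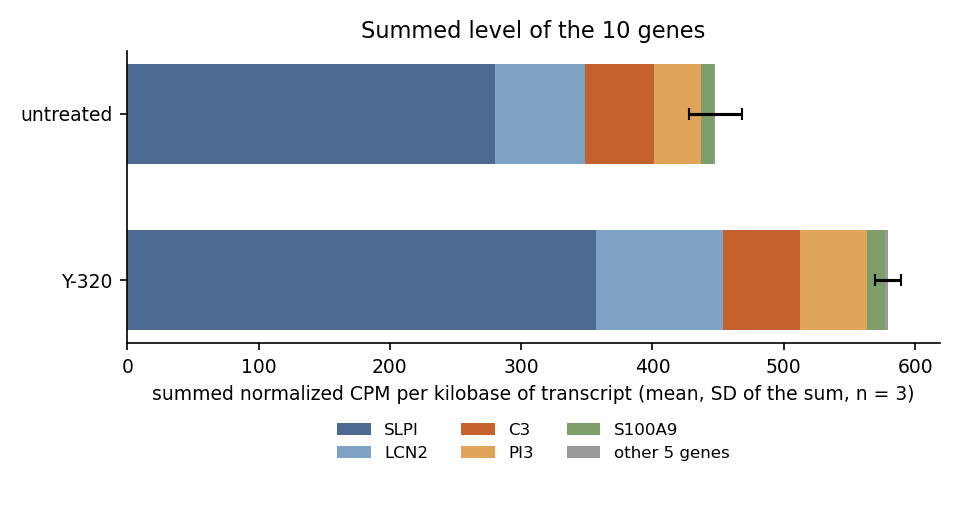
Summed normalized CPM per kilobase of transcript (x axis) of the 10 genes, as the group mean with each gene's part in colour and the SD of the sum as a black bar (n = 3). The sum is 448 in untreated and 579 in Y-320 libraries, and *SLPI* makes up more than any other gene in both.

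Most other antimicrobial protein genes were below the filter on low counts. Of 27, 20 did not pass the filter, and *LTF*, *CAMP* and the defensin genes were among those. Of the 7 tested, 4 were higher and 2 were lower, with a median of 0.44. *ANG*, which encodes angiogenin, was higher by 1.43, from 2.23 ± 0.563 to 6.01 ± 0.201 CPM (adjusted p = 4.54e-05), and *RNASE4*, with which it shares a locus, was higher by 0.44. Of the 31-base words of *ANG*, 24.0% occur in another gene, above all *RNASE4*, and 69.5% of those of *RNASE4* do. The division of reads between the genes of this locus is therefore uncertain. *RNASE4* lost its call without untreated replicate 1, without untreated replicate 2, without Y-320 replicate 1 and by DESeq2 (adjusted p = 0.127). *ADM*, which encodes adrenomedullin, was higher by 0.94. *DMBT1*, a mucosal scavenger receptor, fell by 1.35 and *BPIFB1* by 0.40, the latter a call kept only without untreated replicate 1 and without Y-320 replicate 1.

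Receptors of the secreted proteins were divided too. Besides *SLC22A17* and *LRP2*, *TLR4*, a receptor for calprotectin and serum amyloid A, fell by 1.03, *TLR2* was higher by 0.90, and *SCARB1*, a serum amyloid A receptor, fell by 0.30. *CD36*, named after its values were seen, fell by 1.17. Of the 12 genes in the list of receptors and target proteases, 7 were tested, 2 were higher and 4 were lower, with a median of -0.30.

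Of 16 transcription regulators known to act on these genes, 16 were tested, 10 were higher and 3 were lower, with a median of 0.31. The NF-κB subunit genes were all higher, with log2 fold changes of 2.37 for *RELB*, 1.47 for *NFKB2*, 0.60 for *RELA*, 0.33 for *REL* and 0.28 for *NFKB1*. Of the 31-base words of *REL*, 36.9% occur in another gene. *RELB* held 96, 83 and 67 counts in untreated and 431, 438 and 440 in Y-320 libraries. *BCL3*, which encodes a nuclear NF-κB cofactor, was higher by 0.56, whereas *NFKBIZ*, which encodes IκBζ, a cofactor for *LCN2* transcription, fell by 0.44. *CEBPB* was higher by 0.75 and *CEBPD* by 0.37, and *CEBPA* had 0.13 and did not pass the test (adjusted p = 0.494). The epithelial factor gene *ELF3* was higher by 0.52 and *IRF1* by 0.14 (a call kept only without Y-320 replicate 1 and without untreated replicate 3), and *GRHL3* fell by 1.05. *STAT3* (-0.03) and *SOCS3* (0.03) did not pass the test.

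All 15 genes in a list of cytokine receptors and related genes were tested. The list holds receptor genes for IL-17, IL-1, IL-6 and TNF, the adaptor gene *TRAF3IP2* and the antagonist gene *IL1RN*. It also holds *OSMR*, *LIFR*, *IL22RA1* and *IL10RB*. Of the 15, 9 were higher and 3 were lower, with a median of 0.21. *IL6R* was higher by 1.19, *IL1RAP* by 0.71, the receptor antagonist gene *IL1RN* by 0.43, *OSMR*, the oncostatin M receptor gene, by 0.42 and *IL17RC* by 0.38, while *IL17RE* fell by 0.42. Of the 31-base words of *IL17RC*, 46.4% occur in another gene. The lists differ widely in spread, as the plot of all tested genes by list shows, and no list was compared with another by a test.

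**Figure D5:**
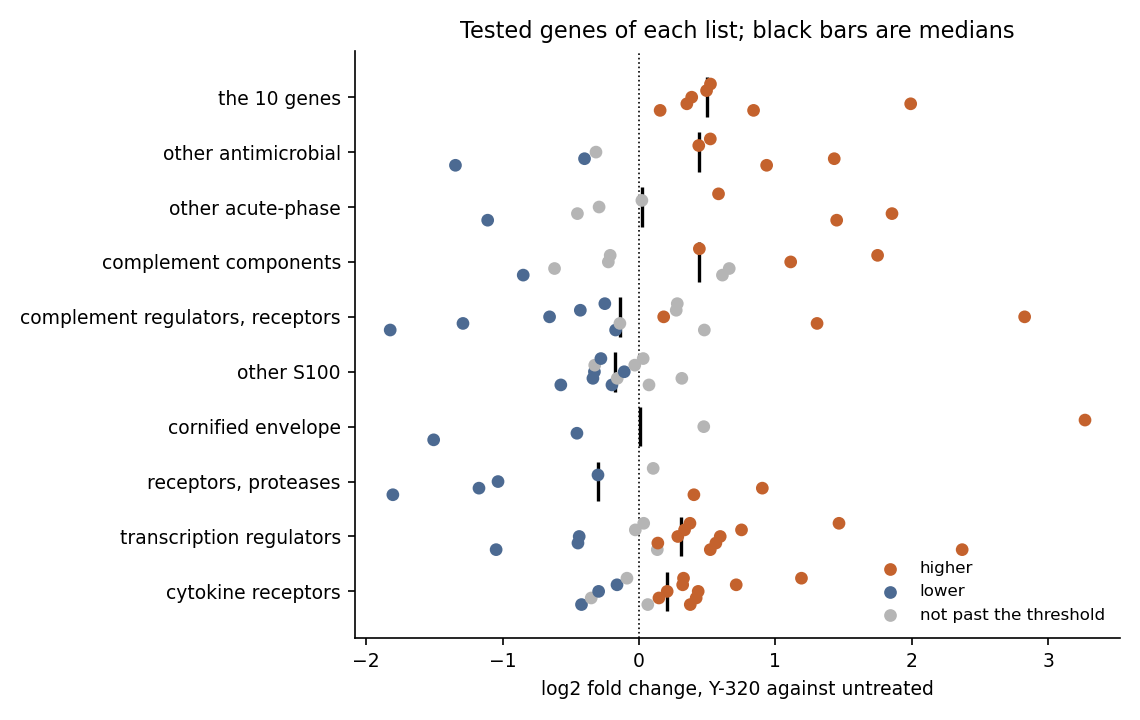
The log2 fold change of Y-320 against untreated (x axis) for each tested gene of 10 lists (rows), coloured by whether it was higher, lower or not past the threshold, with a black bar at each median. All 7 points of the top row, the 10 genes described here, are above 0, whereas each other list has points on both sides.

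Myeloid cells are the best-known source of S100A9 and lipocalin 2. Among 8 neutrophil and monocyte markers, 2 were at 0 in all libraries, *MPO* and *FCGR3B*, and 3 were tested. Of these 3, 1 was higher, *ITGAM*, which passed the filter only through its Y-320 libraries. By edgeR 0 were lower (0 at an unadjusted p under 0.05, and 0 by limma-voom and DESeq2). The median log2 fold change of the 3 was 0.55. All Y-320 libraries were above all untreated ones for 2 of them and below for 1. *LYZ*, which was not tested, held 8.18, 5.63 and 2.47 counts in untreated and 9.04, 4.73 and 14.9 in Y-320 libraries. The summed level of the 8 markers was 1.70 to 2.57 CPM in untreated and 2.72 to 2.99 CPM in Y-320 libraries. The epithelial and fibroblast markers moved with the treatment as given above, and their part in the results was not tested.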

How the data were processed

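The authors deposited estimated counts per gene, not normalized, for 6 RNA-seq libraries of total RNA; per the labels these came from kallisto 0.46.1 and GRCh38 (hg38). The Ensembl release is not given in the sources used here. Estimated counts were rounded and 35390 of 40295 identifiers matched to names. In R 4.3.3, edgeR 4.0.16 filtered rows (filterByExpr, minimum 10 counts, 15 in total), scaled by TMM and fitted a quasi-likelihood model of treatment to 16580 rows. p-values were adjusted by Benjamini-Hochberg over all rows tested, and adjusted p under 0.05 was the threshold. CPM used TMM-scaled library sizes, and levels per kilobase used the main GENCODE 44 transcript. Alternatives used limma 3.58.1, DESeq2 1.42.0, other filters and scalings, a replicate block and each library left out. The method was tested on simulated data with the same dispersion for all genes, which the low rows here need not share. It recovered 72.6% of simulated log2 changes of 0.5 in size, 95.8% of those of 1 and 98.4% of those of 2. Of its calls, 5.38% were of unchanged genes. The genes and lists were chosen with earlier results of these data known. From each list, up to 6 genes past the threshold with a mean of at least 1 CPM were named by size of change, all such transcription regulators, and the relatives *S100A7A*, *SAA4*, *C2*, *WFDC2* and *WFDC12*; others are marked as named after their values were seen. Some genes that the rule names are not reported here. Not all reads of *CFB* could be traced, as alternative haplotype copies carry no name here.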

Additional observations from a re-analysis of the deposited data

How the results depend on the processing

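The 7 tested genes kept their direction in all 105 alternative values, and 100 of these stayed past the threshold; the 5 others were those of *CFB* without 1 library, at 0.56 to 0.90. The number of the 10 genes higher was 6 to 7 without each library in turn, 6 with at least 10 counts required in every library, which removed *SAA2*, and 8 without a filter, which added *SAA1*. Deviations from the group means were nearly uncorrelated between libraries of the same replicate number (correlations -0.0024, 0.015 and 0.0022). This measure cannot show whether the replicate numbers pair the libraries by culture or day. With a replicate block, 7 genes were higher, the lower antimicrobial genes numbered 1, and the cornified envelope genes 2 higher and 1 lower. The higher acute-phase genes numbered 2 with DESeq2, limma-voom, the block, unrounded counts, upper-quartile scaling or 10 counts in every library, and the higher antimicrobial genes 3 with DESeq2. With DESeq2, the lower antimicrobial genes numbered 1, the lower acute-phase genes 0 and the higher cornified envelope genes 2. No lower acute-phase gene (0) was left with 10 counts in every library, 2 cornified envelope genes were higher without a filter, 2 complement components were lower with upper-quartile scaling, and 1 other S100 gene was higher with library size scaling. Without each library in turn, antimicrobial genes had 1 to 2 lower, acute-phase genes 1 to 3 higher (1 without untreated replicate 1) and 0 to 1 lower, complement components 1 to 2 lower (2 without untreated replicate 2), other S100 genes 0 to 1 higher (1 without Y-320 replicate 1), and cornified envelope genes 1 to 3 higher (3 without Y-320 replicate 2) and 1 to 2 lower. The cause was not tested. Depth limited *S100A7*, *S100A8* and *SAA1*.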

Other observations

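Libraries of the same group differed in a few genes. *COL3A1* held 91, 117 and 320 counts in untreated and 40, 159 and 38 in Y-320 libraries, highest in untreated replicate 3 and Y-320 replicate 2. *DCN* was highest in the same libraries, at 8.36, 19.9 and 52.1 counts in untreated and 4.29, 29.7 and 5.78 in Y-320 libraries, as was the acute-phase gene *A2M*, at 5, 5 and 33 and at 4, 18 and 3. Of the 10 genes, *SAA2* was highest in both of these libraries, at 6.82 counts in untreated replicate 3 and 18.7 in Y-320 replicate 2. Genes of the other lists were too, among them *C1R*, *C1S* and *C4B*. By normalized CPM, *SLPI*, *S100A9*, *CFB* and *SAA1* were highest of their group in Y-320 replicate 2 but not in untreated replicate 3, and *LCN2*, *C3* and *PI3* in neither. *COL3A1*, *DCN* and *A2M* were chosen after their values were seen.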
